A study of Homo sapiens with 4 samples.

Results

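In HCT116 cells, an established line from a colorectal carcinoma, 46 array probes of 45 genes gave a signal well above background on both arrays of the vector control clone (vec) and on neither array of a clone with a stable knockdown of plakophilin3 (shpkp3-2). PKP3 encodes plakophilin3, an armadillo protein of the desmosomal plaque. The probes were selected on measured values, from 50117 probes with a value on all 4 arrays (19078 genes with a symbol), by these detection flags and by a mean log2 level at least 1 lower in shpkp3-2. A gene symbol was required in place of a LOC number, an Ensembl transcript or another accession. TENM3, B3GAT1, CD33, STXBP6, DNAH2, TM9SF3 and the keratins, claudins and integrins were left out by name. The flags alone held for 199 probes, the threshold left 83 of them, 53 of these carried a symbol, and 7 of the 53 were left out by name (4 of TENM3, and those of B3GAT1, KRT36 and KRTAP4-11).

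Each clone had 2 arrays, vec 1 and vec 2 of the vector control and shpkp3-2 1 and shpkp3-2 2 of the knockdown, all hybridized with Cy3 labeled total RNA in a single color. The labels describe the arrays of a clone as biological replicates, and the RNA of vec 1 and shpkp3-2 1 was collected at another time than that of vec 2 and shpkp3-2 2. Each condition was thus 1 clone, so that differences between clones and an effect of the knockdown cannot be told apart. Stable plasmids expressed the short hairpin RNA, the labels name 5 μg/ml of puromycin as the selection, and the methods of the study name blasticidin. The PKP3 signal was 20850 and 22840 on the vec arrays against 3414 and 3078 on those of shpkp3-2. This was a log2 difference of -2.54 (SE 0.23, adjusted p = 0.0188 in limma), lower on both shpkp3-2 arrays than on both vec arrays.

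Of 13 markers of colorectal epithelium, 9 were detected on both vec arrays and 10 on both shpkp3-2 arrays, with EPCAM, KRT8, KRT18 and KRT19 among them and with CDX1 and CDH17 on none of the 4 arrays. Markers of other cells were mostly not detected in either clone. On both arrays of each clone the flag held for 2 of 7 fibroblast markers, 1 of 5 endothelial markers, 3 of 8 leukocyte markers, 2 of 6 markers of stratified epithelium and 2 of 5 neuronal markers. PTPRC, PECAM1, DCN and RBFOX3, which define leukocytes, endothelium, fibroblasts and neurons, were not well above background on any array. Divided by the 75th percentile of each array, the summed intensities of the fibroblast, neuronal and endothelial markers overlapped between the clones, at 2.08 and 3.54 in vec against 1.97 and 2.13 in shpkp3-2 for fibroblasts. Those of 3 lists were higher on both shpkp3-2 arrays, with 1101 and 1251 in vec against 1403 and 1429 for colorectal epithelium, 4.53 and 4.95 against 7.43 and 8.0 for stratified epithelium (mostly KRT15, adjusted p = 0.221 in limma) and 0.526 and 0.454 against 0.548 and 0.670 for leukocytes. Their part in the results was not tested.

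The flag compares a spot with the noise of its local background, and so marks whether a transcript was bright enough to be measured. A gene that drops below it may still be transcribed, and in bulk RNA fewer cells with a transcript and less of it per cell cannot be told apart. Several of the 45 genes are known from other tissues than colon. F2, OTC and HPD are made by hepatocytes, and MNS1, IFT81 and CFAP100 belong to cilia or flagella. GAGE12F is a cancer-testis antigen that somatic tissues usually keep silent. Another member, FOXA2, is a transcription factor of endoderm derived organs.

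All 46 probes were dim. Intensities of the member probes ran from 10.8 to 58.0 on vec 1 (median 20.7) and from 10.3 to 40.8 on vec 2 (median 14.9). On the knockdown arrays they ran from 2.06 to 9.45 (median 5.43) and from 1.81 to 10.7 (median 5.79). The lowest intensity that the flag accepted was 9.46 and 9.67 on the vec arrays against 9.74 and 8.41 on those of shpkp3-2. The members therefore sat above that level in vec and near or below it in shpkp3-2. Their vec signal, which depends on the probe as well as on the transcript, stood at a median percentile of 4.79 (range 0.249 to 21.8) among the 29672 probes detected on both vec arrays. No member spot was saturated.

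**Figure D1:**
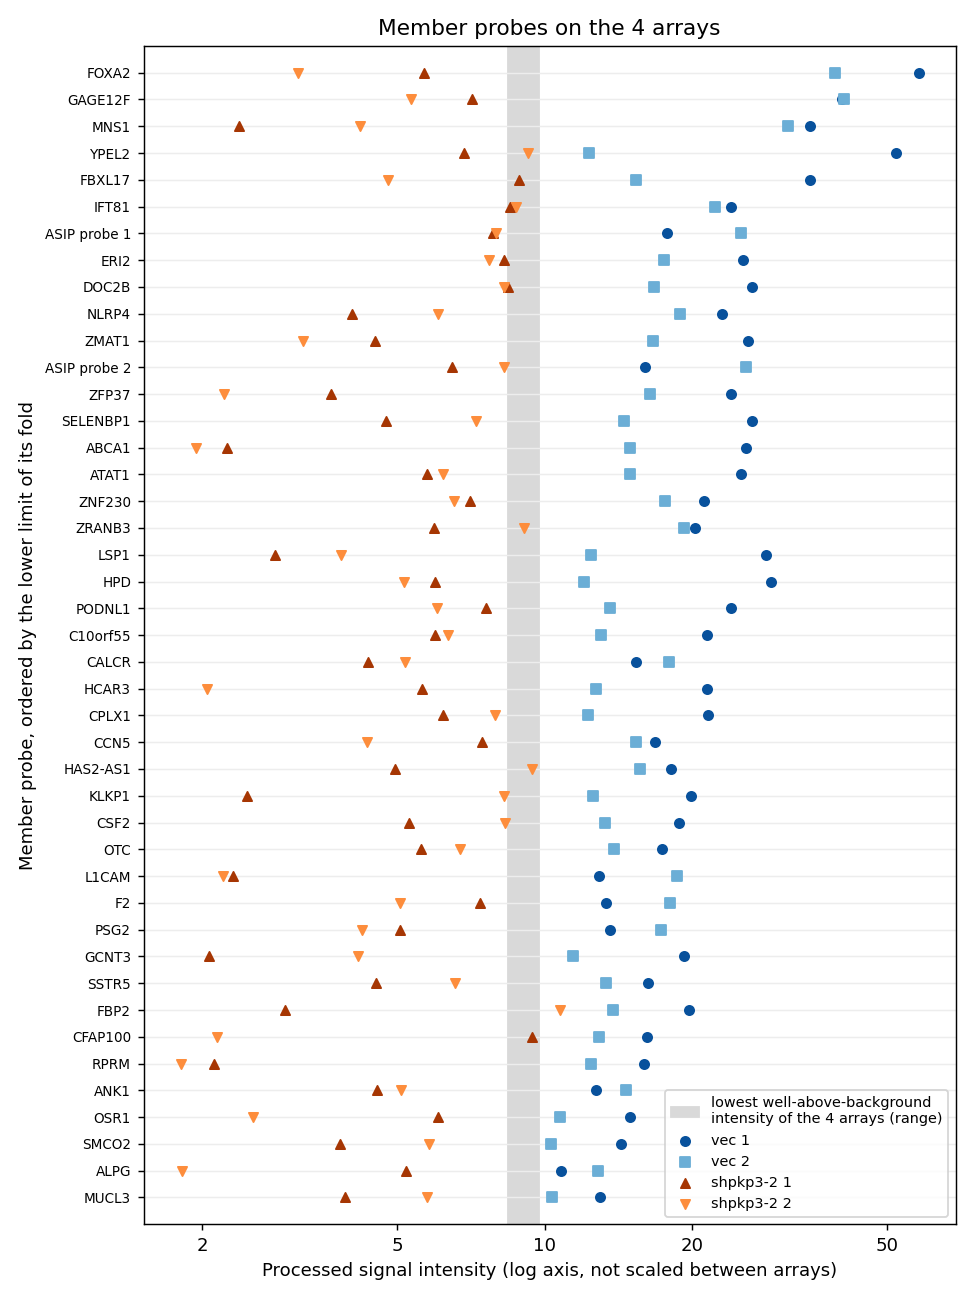
Processed signal intensity (log axis) of 43 of the 46 member probes on each of the 4 arrays, ordered by the lower limit of the fold, with the range of the lowest well-above-background intensities of the arrays in grey. The vec points lie right of the grey band, between 10.3 and 58.0, and the shpkp3-2 points lie left of it, within it or, for 1 array of FBP2, just past it at 10.7.

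The measured log2 difference of the members, shpkp3-2 minus vec, ran from -3.28 to -1.0 with a median of -1.48, while the median over all 30512 probes tested was 0.05. Since no shpkp3-2 value was well above background, the fold itself is not well measured. A nominal lower limit was taken from the mean normalized level in vec over a mean for shpkp3-2. In that mean each array entered at its lowest well-above-background level or at the probe's own level, whichever was higher. Spots without the flag can be brighter than that level, as PECAM1 was at 12.8 and 11.7 on the shpkp3-2 arrays. The spread of the vec arrays did not enter either. The limit is therefore not a strict bound, also where a fold is given below as at least some value. It ran from 1.10-fold to 4.55-fold with a median of 1.66-fold, was at least 1.5-fold for 31 probes and at least 2-fold for 11. In all 46 probes both shpkp3-2 arrays were below both vec arrays on the normalized scale, an order that 5505 of the 30512 probes tested (18%) also had. A mean at least 1 lower in shpkp3-2 was found for 344 of the 30512 (1.13%). Taken within each pair of arrays collected together, 27 of the 46 were at least 1 lower in both pairs. The levels chose these probes, so that the values describe them and carry no test.

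In limma, 44 of the 30512 probes (0.144%) were called lower in shpkp3-2 at an adjusted p below 0.05 and 75 (0.246%) were called higher. Among the 44 were 9 members, with the probes of FOXA2, GAGE12F, MNS1, ZMAT1, ZFP37, ABCA1 and RPRM among them. With the collection of the RNA as a replicate block, 338 probes (1.11%) were called lower, the 46 members included, and 503 (1.65%) higher. As the same contrast chose the members, nothing is read from either count. The 44 became 142 without vec 1, 154 without vec 2 and 80 without shpkp3-2 2. The same flags and size were met by probes in both directions, with 83 probes (0.272%) detected in vec alone and at least 1 lower, and 115 probes (0.377%) detected in shpkp3-2 alone and at least 1 higher. Of the 115, 71 carried a symbol.

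**Figure D2:**
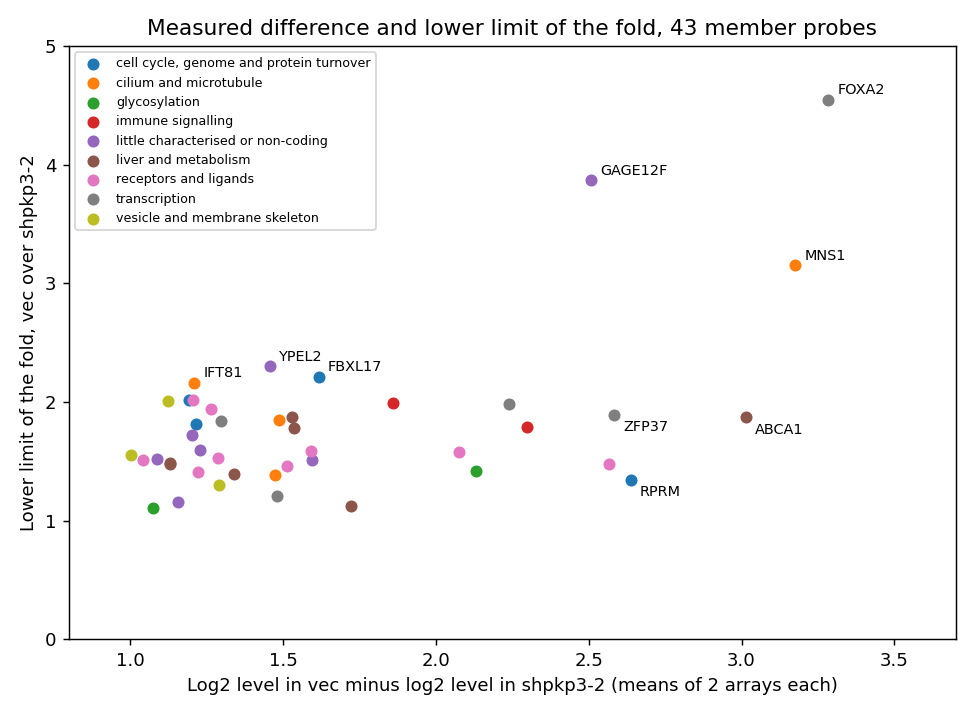
Log2 level in vec minus that in shpkp3-2 (means of 2 arrays each) against the lower limit of the fold for 43 of the 46 member probes, colored by the gene's role. FOXA2, GAGE12F and MNS1 have limits of 3.15-fold or more, while ABCA1 and RPRM have log2 differences of 3.02 and 2.64 but limits of 1.87-fold and 1.35-fold.

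The largest difference was that of a transcription factor. FOXA2, a forkhead protein that opens chromatin in early endoderm, liver and pancreas, had intensities of 58.0 and 39.2 on the vec arrays against 5.68 and 3.14 on those of shpkp3-2. This was a log2 difference of -3.28 and at least 4.55-fold lower in shpkp3-2. The clones did not overlap. Further members with a role in transcription were ZFP37, ZNF230, ZMAT1 and OSR1, all zinc finger proteins, with differences between -2.58 (ZFP37) and -1.30 (ZNF230) and limits of 1.21-fold to 1.98-fold.

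Cilium and microtubule genes numbered 4. MNS1, a protein of sperm flagella and motile cilia, had intensities of 34.8 and 31.4 in vec against 2.38 and 4.2 in shpkp3-2, a log2 difference of -3.18 and at least 3.15-fold lower. IFT81, the subunit of the intraflagellar transport particle that binds tubulin, had 24.0 and 22.2 in vec against 8.51 and 8.73 in shpkp3-2 (-1.21, at least 2.16-fold). The arrays of each clone lay close together for IFT81, and the shpkp3-2 values were near the detection level. A brighter IFT81 probe, well above background on every array, was only 1.26-fold lower (-0.33, SE 0.25, adjusted p = 0.625 in limma). The limit of 2.16-fold thus holds for the member probe and not for the gene. ATAT1, which acetylates α-tubulin, and CFAP100, a protein of motile cilia, had differences of -1.49 and -1.47 and limits of 1.85-fold and 1.38-fold. For CFAP100 the shpkp3-2 arrays disagreed, at 9.45 and 2.15.

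Genes of hepatocytes and of metabolism numbered 7. F2 encodes prothrombin, OTC a urea cycle enzyme, HPD an enzyme of tyrosine breakdown, FBP2 the muscle form of fructose bisphosphatase, ABCA1 the transporter that exports cholesterol, SELENBP1 a selenium binding protein and ALPG an alkaline phosphatase of germ cells. Their vec intensities lay between 10.8 and 29.0 and their shpkp3-2 intensities between 1.82 and 10.7. The differences ran from -3.02 (ABCA1) to -1.13 (F2 and OTC), with a median of -1.53. No lower limit in this group passed 1.87-fold.

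Mucins and their glycosylation were represented as well. GCNT3, which branches the O-glycans of mucins, had a difference of -2.13 and a limit of 1.42-fold. The mucin-like MUCL3 (listed as DPCR1) lay just inside the threshold and is given with it.

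Receptors, ligands and surface proteins were 9 probes of 8 genes. ASIP, a secreted antagonist of melanocortin receptors, had 2 member probes. The first had 17.8 and 25.1 in vec against 7.86 and 7.97 in shpkp3-2 (-1.20, at least 2.02-fold), and the second had 16.0 and 25.8 in vec against 6.49 and 8.25 in shpkp3-2 (-1.26, at least 1.94-fold). The values of the 2 probes were alike on each array. They are nearly the same sequence, as 59 of their 60 bases are shared with a shift of 1 base, so that they count as 1 measurement. Their first 30 bases are shown, with the shared bases in capitals.

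ASIP, first member probe: AGATGGGACTTCAGGGAGACCTGGCTTGGG

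ASIP, second member probe: gAGATGGGACTTCAGGGAGACCTGGCTTGG

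The remaining genes of that group were CALCR and SSTR5 (receptors of calcitonin and somatostatin), HCAR3 (a receptor for hydroxylated fatty acids), CSF2 (the cytokine GM-CSF), CCN5 (a matricellular protein), L1CAM (an adhesion molecule of neurons) and PSG2 (a pregnancy-specific glycoprotein). Over all 9 probes the difference ran from -2.57 (L1CAM) to -1.04 (CSF2) with a median of -1.29, and the limits ran from 1.41-fold to 2.02-fold.

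Immune genes included NLRP4 and LSP1. NLRP4, of the family of cytosolic receptors with leucine-rich repeats, had 23.02 and 18.9 in vec against 4.05 and 6.07 in shpkp3-2 (-1.86, at least 1.99-fold). LSP1, an actin binding protein of leukocytes, had a measured difference of -2.30 and a limit of 1.79-fold. Of the vesicle and membrane skeleton genes, DOC2B, a calcium sensor of exocytosis, had 26.5 and 16.7 in vec against 8.42 and 8.28 in shpkp3-2 (-1.12, at least 2.01-fold). ANK1, which ties membrane proteins to spectrin, had -1.29 and 1.30-fold. The SNARE regulator CPLX1 lay just inside the threshold.

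Genes of the cell cycle, genome upkeep and protein turnover numbered 4. FBXL17, an F-box subunit of a ubiquitin ligase, had 34.9 and 15.4 in vec against 8.89 and 4.79 in shpkp3-2 (-1.62, at least 2.21-fold). ERI2, an exonuclease, had 25.4 and 17.5 in vec against 8.25 and 7.71 in shpkp3-2 at its member probe (-1.19, at least 2.01-fold). A brighter ERI2 probe, well above background on every array, had 424 and 295 in vec against 239 and 235 in shpkp3-2. It was only 1.29-fold lower (-0.37, SE 0.17, adjusted p = 0.469 in limma). RPRM, which p53 induces and which arrests cells in G2, had a difference of -2.64 but a limit of 1.35-fold, and ZRANB3, which remodels stalled replication forks, had -1.22 and 1.81-fold.

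The last 7 genes are little characterised, non-coding or of no shared role. GAGE12F (listed as GAGE7) had 40.4 and 40.8 in vec against 7.10 and 5.34 in shpkp3-2 (-2.51, at least 3.87-fold), with no overlap and with both vec arrays alike. YPEL2, of a zinc binding family named after the yippee protein, had 52.0 and 12.3 in vec against 6.84 and 9.27 in shpkp3-2 (-1.46, at least 2.30-fold). Its vec arrays differed by more than 1 on the log2 scale, as they did for the second ASIP probe. Without vec 1 the difference of YPEL2 was -0.61 and its limit 1.28-fold, and without vec 2 they were -2.30 and 4.13-fold. No other member's limit moved by more than 1.5 times when an array was left out. The measured differences of 7 further members did, through a shpkp3-2 array below detection. Among these, the differences without shpkp3-2 1 and without shpkp3-2 2 were -0.72 and -2.47 for KLKP1, -0.40 and -2.28 for FBP2 and -2.53 and -0.41 for CFAP100. They were -2.79 and -1.36 for HCAR3, -2.10 and -0.86 for OSR1, and -2.47 and -0.97 for ALPG. PODNL1, SMCO2, C10orf55, the pseudogene KLKP1 and the antisense transcript HAS2-AS1 had differences between -1.59 (KLKP1) and -1.09 and limits of 1.16-fold to 1.72-fold. GAGE12F, PSG2, HCAR3 and ALPG have near-identical relatives, and a probe may have read more than 1 copy of these families.

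No gap in the values marked the threshold of 1. Just inside it, CPLX1 had 21.6 and 12.2 in vec against 6.19 and 7.94 in shpkp3-2 (-1.0), CSF2 had 18.8 and 13.3 against 5.28 and 8.32 (-1.04), and MUCL3 had 13.0 and 10.3 against 3.92 and 5.76 (-1.07). Just outside it, PER3, a clock gene, had 15.0 and 13.9 against 7.31 and 5.33 (log2 difference -0.997). DMXL1 had 25.9 and 13.5 against 9.42 and 6.99 (-0.993), and GRIP2 had 20.6 and 15.0 against 6.52 and 8.94 (-0.991). By the flags alone, 65 more symbol-bearing probes fell short of the threshold. The number of probes that met the rule varied with single arrays. With 1 array left out and its clone represented by the other, the same rule gave 127 probes without vec 1, 275 without vec 2, 71 without shpkp3-2 1 and 136 without shpkp3-2 2.

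The background correction had the largest effect on the sizes. With normexp correction of the raw signal and an offset of 50, which pulls dim spots together, 43 of the 46 members were still lower in shpkp3-2, but none by 1. The differences then ran from -0.62 (FOXA2) to 0.05 (MUCL3). On the software's weaker flag, positive and significant, 39 of the 46 members were detected on both shpkp3-2 arrays, 5 on 1 of them and 2 on neither.

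The label of genes detected only in the vector control did not hold for every gene once the other probes were considered. The array carried 38 further probes for 25 of the 45 genes. In 14 of these genes another probe was well above background on both shpkp3-2 arrays, in FBP2 on 1 of them, and in 10 on neither. Of the 10, only ASIP and SMCO2 had another probe well above background on both vec arrays. In the rest the other probes were not detected on both vec arrays either, so that they cannot show a loss. Among the 14 were ALPG, ANK1, C10orf55, CPLX1, ERI2, F2, FBXL17, FOXA2, GCNT3, IFT81, YPEL2, ZNF230 and ZRANB3. For these genes the member probe, not the gene, was below detection. For the 20 genes with a single probe the array holds no such comparison.

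Of the 38 probes, 21 were bright enough to be tested. They read the same RNA as the members, and so are further measurements and not further samples. Of the 21, 3 were tested because they were well above background throughout in vec alone and 2 because they were so in shpkp3-2 alone. The filter itself favours a direction for these 5, and the 3 were lower and the 2 higher. The other 16 were well above background on all 4 arrays. Of these 15 were lower in shpkp3-2 (93.8%) and 1 higher, with a median log2 difference of -0.44. Of all 28883 probes with that detection 42.9% were lower (43.1% of all probes tested), with a median of 0.05. In limma 2 of the 21 were called lower and none higher, at an adjusted p below 0.05, where 0.144% of all probes were called lower. With the replicate block 3 were called lower and 2 higher, against 1.11% and 1.65% of all probes, and 2 lower with a block on the crossed pairs (vec 1 with shpkp3-2 2 and vec 2 with shpkp3-2 1).

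The 2 probes called without the block were of FOXA2 and GCNT3. With the block a ZRANB3 probe was also called lower (adjusted p = 0.0416), and another FOXA2 probe (0.0354) and a YPEL2 probe (0.0099) were called higher. A brighter probe of FOXA2 had intensities of 92.1 and 73.5 on the vec arrays against 12.8 and 15.4 on those of shpkp3-2. All 4 values were well above background, the clones did not overlap, and the log2 difference was -2.34 (SE 0.19, adjusted p = 0.0122 in limma). A brighter probe of GCNT3 had 491 and 356 in vec against 77.5 and 97.7 in shpkp3-2, also without overlap (-2.05, SE 0.20, adjusted p = 0.0238 in limma). The member probe of GCNT3 had 19.2 and 11.5 in vec against 2.06 and 4.16 in shpkp3-2, where it was not well above background. The call of the FOXA2 probe was lost under normexp correction, where its difference shrank to -0.80 (adjusted p = 0.0608), and at an unchanged difference without the detection filter (0.114) and with the weaker flag (0.109). That of the GCNT3 probe was lost without vec 2 (adjusted p = 0.055), without the detection filter (0.172) and with the weaker flag (0.164). The first 30 bases of both GCNT3 probes are shown to let the 2 sites measured in this gene be told apart.

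GCNT3, member probe: tttgaagaaccctaaatcccaacaactgat

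GCNT3, brighter probe: aggtttggtagcgtggaggagaactttgat

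Not all probes of a gene pointed the same way. The remaining FOXA2 probe had 13.1 and 7.35 in vec against 28.0 and 11.04 in shpkp3-2, higher by 1.05 (SE 0.44, adjusted p = 0.415). YPEL2 had a probe that was higher by 1.20 (SE 0.38, adjusted p = 0.309) and another that was -0.29. The F2 probe outside the rule, detected on both shpkp3-2 arrays and on neither vec array, was higher by 0.48 (SE 0.28, adjusted p = 0.542). The brightest probe of any member gene, of FBXL17, had 15025 and 24970 in vec against 11301 and 17268 in shpkp3-2, where the clones overlapped (-0.26, SE 0.41). All 3 further probes of ZRANB3 had differences of -0.995, -0.60 and -0.58, with adjusted p of 0.118 to 0.303 in limma. Further probes of ZNF230, CPLX1 and C10orf55, well above background on every array, had only -0.05, -0.16 and -0.14 (adjusted p of 0.778 to 0.936 in limma). Those of ANK1 and ALPG had -0.68 and -0.55 (adjusted p of 0.379 and 0.316 in limma).

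The close relatives of FOXA2 were measured as well, and neither was called. FOXA1 had 259 and 174 in vec against 175 and 151 in shpkp3-2 (-0.17, SE 0.19), and FOXA3 had 966 and 900 in vec against 826 and 747 in shpkp3-2 (-0.04, SE 0.19). Their adjusted p were 0.733 and 0.955 in limma, which does not show that they were equal in the 2 clones.

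**Figure D3:**
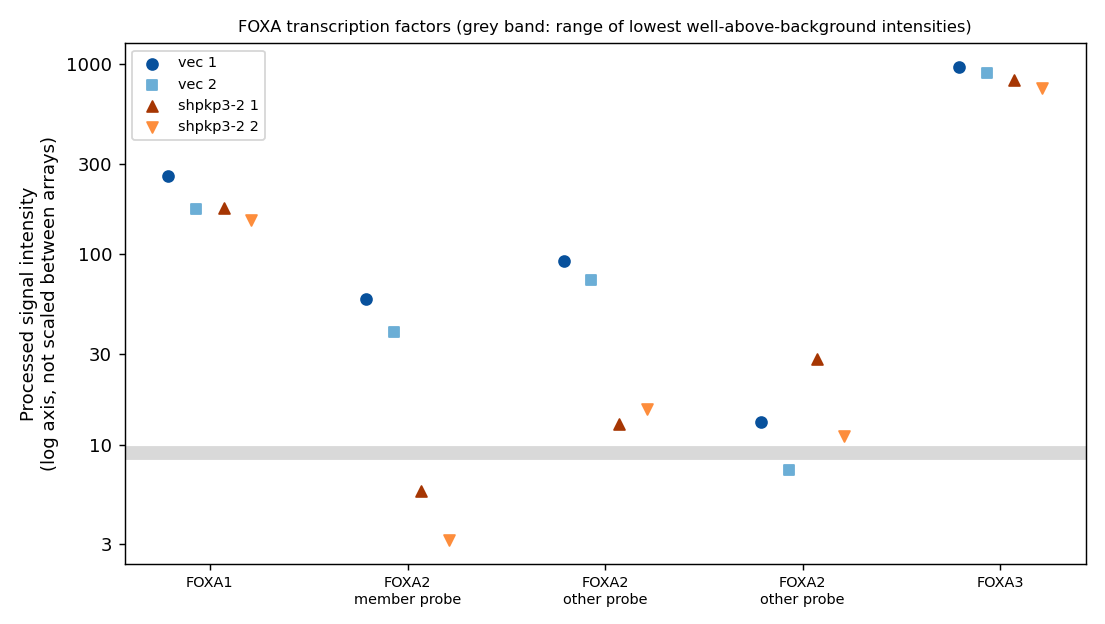
Processed signal intensity (log axis) on the 4 arrays for FOXA1, FOXA2 and FOXA3, with the 3 probes of FOXA2 shown singly and the range of the lowest well-above-background intensities in grey. The vec points of the FOXA2 member probe lie at 58.0 and 39.2 and its shpkp3-2 points at 5.68 and 3.14, while the points of FOXA1 and of FOXA3 lie close together.

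Wider families were compared by name stem. Such a stem joined 146 genes to 27 of the members, and 92 of them were tested. Of these 39 (42.4%) were lower and 53 higher, with a median of 0.07, near the median of 0.05 over all probes. The only call was ZFP42, a zinc finger gene of pluripotent cells that shares its stem with ZFP37, another zinc finger gene. It had 328 and 188 in vec against 55.9 and 60.8 in shpkp3-2 (-1.88, SE 0.21, adjusted p = 0.0399 in limma), but the call was lost without shpkp3-2 1 (adjusted p = 0.0674), under quantile normalization (0.0519), without the detection filter (0.214) and with the weaker flag (0.179). With the replicate block 2 of the 92 were called lower (2.17% against 1.11% of all probes), ZFP42 and ZFP2, and 3 higher (3.26% against 1.65%), ANK2, CSF2RA and ABCA12. With the crossed block 1 was called. The 17 tested relatives of IFT81, the other subunits of intraflagellar transport, had differences between -0.53 (IFT88) and 0.82 (IFT20) with a median of 0.14, and none was called, with or without the block. The 10 relatives of PSG2 and those of MUCL3 and GAGE12F were not bright enough to be tested.

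The members lay on 19 chromosomes, with 5 on chromosome 19 and 4 each on chromosomes 2, 12 and X, and no member was next to another once genes that were not tested were passed over. For each member the nearest tested gene on either side in the RefSeq order was taken, 89 genes in all. Between 18 of these and their member lay no other gene, with a median of 2 genes between and at most 29. Of the 89, 49 (55.1%, against 43.1% of all probes tested) were lower and 40 higher, with a median of -0.09. None was called in limma at an adjusted p below 0.05, and 0 were with the crossed block. At an unadjusted p below 0.05 in limma, 11 of the 89 were lower and 8 higher. Both are larger shares than the 4.98% and 7.35% of all probes tested. The largest differences were those of FAM225A, with 1 gene between it and ZFP37 (-1.15, SE 0.19), and NR4A2, with 29 genes between it and RPRM (1.11, SE 0.25), with adjusted p of 0.11 and 0.199. These were the genes called with the replicate block, at adjusted p of 0.0138 and 0.0231. PLAU, which lies next to C10orf55 and encodes urokinase, had -0.95 (adjusted p = 0.145).

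Since FOXA2 was a member, the promoters of the members were searched for the letters that forkhead proteins prefer. RefSeq promoter sequences (GRCh38.p14) matched 28 of the 45 genes, with 36 start sites in all. FOXA2 was not among the 28. In the 250 bases before the start, the forkhead core TGTTTAC occurred on either strand in SMCO2 and SSTR5, which is 2 of 36 promoters (5.56%) against 2.98% of all 35116. The TATA box TATAAA, also on either strand, occurred in 6 promoters, of ABCA1, ASIP, OTC and SMCO2 (16.7% against 10.7%). The counts are small, and a match describes letters only. The 2 promoters with a forkhead match are shown because they hold the letters searched for, with the match in capitals.

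SMCO2, chr12:27466598-27466847, plus strand: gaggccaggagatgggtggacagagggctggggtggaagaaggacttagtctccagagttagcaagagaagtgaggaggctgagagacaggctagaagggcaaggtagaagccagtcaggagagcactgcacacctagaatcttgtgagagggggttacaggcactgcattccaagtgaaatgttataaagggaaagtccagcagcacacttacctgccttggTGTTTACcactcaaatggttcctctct

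SSTR5, chr16:1078576-1078825, plus strand: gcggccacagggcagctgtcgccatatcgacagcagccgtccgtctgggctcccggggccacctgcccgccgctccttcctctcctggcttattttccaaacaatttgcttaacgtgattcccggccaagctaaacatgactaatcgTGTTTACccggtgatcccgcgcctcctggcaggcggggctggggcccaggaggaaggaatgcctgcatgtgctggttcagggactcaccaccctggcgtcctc

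The match began 27 bases before the start in SMCO2 and 103 bases before it in SSTR5. The promoters of the members differed widely in CpG content, from 0 CpG pairs in 1 promoter each of ASIP, CALCR and SMCO2 to 39 in IFT81 and 35 in FBXL17. Their median was 9.5 against 11 over all promoters.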

How the data were processed

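Single color Agilent arrays, 4 in all and 2 for each HCT116 clone, were grouped by their labels. The authors hybridized Cy3 labeled RNA and deposited the output of Agilent Feature Extraction (version 9.1 per the labels, 10.7.3.1 per the file headers). The deposited intensity of a spot is the processed signal on a linear scale, after background subtraction, detrending and the use of surrogates for low signals, and is not scaled between arrays. The array is a custom design built on hg18.

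The log2 of the intensity minus the 75th percentile of each array over its 51538 spots was averaged over the spots of a probe. Well above background were 60.5% to 63.5% of spots, and saturated were 0. Gene symbols were updated through RefSeq by accession for 28590 of 50238 probes, by symbol for 3001 and by older symbol for 1176.

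limma 3.58.1 (R 4.3.3, lmFit and eBayes, Benjamini-Hochberg adjustment) was run on the 30512 probes that either clone, or both, had well above background on each of its arrays. Precision is limited by having 2 arrays a clone, and an exact permutation test could not go below p = 0.333. The fit was also run on simulated data, with changes larger than those of the members and without a detection floor. That run does not test the fit at sizes like those of the members.

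The series text states that the RNA of same-numbered arrays was collected together, so that the numbers pair the samples. The deviations of same-numbered arrays from their clone's mean had a correlation of -0.199. The file names place all arrays on 1 slide, with the clones at different positions, so that position and clone cannot be told apart.

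The members, gene lists and tests were chosen with earlier results of these data known, and the groups by role were made after the values were seen. Values on every array are given for 10 of the 12 member genes with the largest lower limit of the fold, for ASIP with its 2 probes, and for the 3 probes just inside and the 3 just outside the threshold. Of other probes, relatives and neighbours, those called are named, otherwise the 3 largest differences of a kind. Further ones named (the FOXA family, the IFT subunits, PLAU, and several other probes of member genes) were chosen after their values were seen. Results of 3 members and of some further genes are not reported here. For relatives and for neighbours, which are the nearest tested genes, the brightest probe of a gene was used. Other probes of member genes were also counted over those well above background on all arrays, a choice made after the data were seen. The alternatives were normexp correction (offset 50), quantile normalization, median centring, no detection filter, the weaker flag, a trended and robust prior, the replicate block, other size thresholds and each array left out.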

Additional observations from a re-analysis of the deposited data

How the results depend on the processing

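The number of probes that met the rule, 46, stayed within 1.5 times under median centring (55) and quantile normalization (56). It was 0 with normexp correction, 77 with the weaker flag, 86 with a 1.5-fold threshold, 22 with each shpkp3-2 array 1 below each vec array, 111 by the flags alone and 11 with a lower limit of at least 2-fold. With 1 array left out it ran from 71 to 275. With the replicate block limma called 338 probes lower and 503 higher, 2 relatives lower and 3 higher, and 1 of the nearest tested genes each way. The block on the crossed pairs, added after the data were seen because the correlation of the pairs was -0.199, gave 40 lower and 64 higher. Without the detection filter 8 were lower and 10 higher, with the weaker flag 1 and 1, and under both settings no other probe of a member gene and no relative (0) was called. PKP3 kept its log2 difference of -2.54 under both, at adjusted p of 0.135 and 0.145, and passed the threshold under the other alternatives. Higher calls were 42 with quantile normalization and 114 with the trended and robust prior. With normexp correction 1 other probe of a member gene and 1 nearest tested gene were called, and with quantile normalization 0 relatives. With 1 array left out, the lone array of its clone is assumed to vary like the other clone's. Lower calls then ran from 55 to 154 and higher calls from 108 to 243. Lower calls ran from 1 to 2 among other probes, from 0 to 1 among relatives and from 0 to 0 among nearest tested genes. Without vec 1 a relative was also called higher. The PKP3 difference ran from -2.80 to -2.28. The causes were not tested. For the 12 members with the largest lower limit the difference moved by more than the spread between arrays in 12 under normexp and in 0 under the other scalings. Leaving out each array in turn for the lower limits, added after the data were seen, kept the differences of the 46 members between -3.70 and -0.40 and left ALPG without a limit above 1-fold when vec 2 was left out. The signals lay near background, which limits how far any of these folds is known.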
